A study of Mus musculus with 8 samples.

Results

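The genes described here are 10 transcription factors that act in the step from dividing basal keratinocyte to cornified cell: Trp63, Klf4, Grhl1, Grhl3, Prdm1, Foxn1, Zfp750, Cebpa, Cebpb and Gata3. They were taken by symbol from 2 deposited tables of the same 16902 genes, and all 10 were found in both. RNA of the epidermis, freed from the dermis of CD1 mouse back skin with dispase, was measured by sequencing of polyadenylated RNA in 8 libraries. The mice carried different alleles of Ovol1, which encodes a zinc-finger repressor of stratified epithelia, and were either left untreated or given imiquimod (IMQ), which activates Toll-like receptors and causes psoriasis-like inflammation in mouse skin. The 4 groups were Ovol1 -/- under IMQ, Ovol1 +/+ controls under IMQ, untreated Ovol1 -/- and untreated Ovol1 +/- controls, each with 1 female and 1 male library. The control genotype therefore changes together with the treatment, and the 2 cannot be told apart in the controls. All mice were of the same strain, and no driver line or conditional allele is named in the labels. The sources used here do not give age, IMQ dose and duration, litter or sequencing batch, so p-values measure only the spread between these libraries.

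In textbook accounts, p63 (Trp63) keeps the basal layer in its epithelial state and opens the genes that later factors use. Leaving the basal layer brings in a second set, among them Zfp750, which p63 itself turns on, Klf4, which is needed for the skin barrier, and the grainyhead-like factors Grhl1 and Grhl3, which drive desmosome, envelope and barrier genes. Prdm1 (Blimp1) acts at the last transition to the cornified cell, the C/EBP factors couple cell cycle exit to early differentiation, Gata3 acts in barrier lipid synthesis and in the inner root sheath, and Foxn1, the gene mutated in nude mice, acts in the hair shaft and in suprabasal keratinocytes. Gata3, Prdm1 and the C/EBP factors are also known from immune cells or sebocytes, so other cells of the sheet can add to their counts.

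Each library held 28.6 to 43.1 M reads, recovered from the deposited values as described under processing. Markers of keratinocytes were present as labelled: Krt14, a basal keratin, stood at 4448 to 8375 CPM (a gene's reads scaled to a common library total) and Krt10, a spinous keratin, at 3789 to 8866 CPM over the 8 libraries. Ovol1 was read in all libraries and stood higher in those labelled knockout. It was at 436 and 429 CPM in the IMQ knockouts against 250 and 310 CPM in the IMQ controls. In untreated epidermis it was at 725 and 700 CPM in the knockouts against 445 and 392 CPM in the controls. The adjusted p was 0.0880 under IMQ and 0.346 untreated in limma, 0.0968 and 0.354 in edgeR, and 0.00226 and 9.13e-04 in DESeq2. The tables give no value per exon, so whether the deleted part is missing cannot be read from them, and the term labelled knockout is used for the -/- libraries. Its paralog Ovol2 stood at 4.52 to 14.9 CPM, and higher in the labelled knockout of each sex in both treatments. The log2 fold change of Ovol2 was 0.64 (SE 0.27) under IMQ and 0.67 (SE 0.27) untreated. Neither reached an adjusted p under 0.05 in limma. The female IMQ control stood apart in markers of other tissues: its summed muscle markers were at 91.4 CPM against 3.19 to 15.1 CPM in the other 7 libraries, and its endothelial markers at 18.2 CPM against 0.780 to 2.78 CPM. Its Langerhans and dendritic cell markers were at 4760 CPM against 1612 to 2646 CPM. Macrophage and monocyte markers were at 299 CPM against 90.4 to 191 CPM, and melanocyte markers at 100 CPM against 34.1 to 54.3 CPM. Dermal fibroblast markers were summed to 144 to 382 CPM in the 4 female libraries and to 660 to 3406 CPM in the 4 male ones.

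The promoters of 3 members are shown, chosen by the values below. Klf4 had the largest log2 difference among the members between IMQ and untreated libraries. Foxn1 and Grhl3 were the members whose labelled knockouts and controls did not overlap under IMQ, which held for 53.0% of all genes. RefSeq windows (GRCm38.p6, the build behind the name mm10) were found for 8 of the 10 members. Each line gives the 160 bases before the annotated start of transcription and the start base, 5′ to 3′ on the gene's strand. The last letter in capitals is the start base, and the other capitals mark 3 kinds of promoter element on either strand. These are the GC box with the letters GGGCGG, the CACCC box, searched as CCACCC, and the CCAAT box.
Klf4, chr4:55532475-55532635, minus strand: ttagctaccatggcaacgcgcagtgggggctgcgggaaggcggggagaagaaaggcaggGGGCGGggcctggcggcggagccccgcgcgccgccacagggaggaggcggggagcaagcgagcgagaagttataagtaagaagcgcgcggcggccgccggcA
Foxn1, chr11:78386608-78386768, minus strand: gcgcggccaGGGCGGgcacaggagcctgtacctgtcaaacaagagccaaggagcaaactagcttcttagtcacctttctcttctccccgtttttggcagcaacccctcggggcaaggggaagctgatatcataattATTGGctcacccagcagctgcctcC
Grhl3, chr4:135573632-135573792, minus strand: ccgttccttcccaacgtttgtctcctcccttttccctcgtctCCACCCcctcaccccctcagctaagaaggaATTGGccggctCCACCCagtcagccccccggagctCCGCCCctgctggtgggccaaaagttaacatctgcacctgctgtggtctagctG

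The Klf4 stretch was the richest of them in G and C, at 71.4%, against 56.5% for Foxn1 and 61.5% for Grhl3 and a median of 53.4% over the same stretch of all promoters in the table. Over the full 300-base windows, 9 windows of the 8 members were searched on both strands, where hits of different motifs may overlap. A GC box was found in 6 of these 9 windows against 35.7% of all windows, a CACCC box in 5 against 31.5%, a CCAAT box in 4 against 37.4% and a TATA box (TATAAA) in 2 against 13.6%. The Ovol1 core CCGTTA was found in 0 of the 9 windows, and it is found in 2.76% of all windows. The grainyhead-like site AACCNGTT (2.09% of all windows), the C/EBP site TTNNGCAA (10.8%), the GATA site AGATAA (11.2%) and the AP-1 site TGACTCA (1709 of 32851 windows) also had 0 matches, which says only that these letters are not in these windows.

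The 10 genes covered a wide range of levels. To compare genes, CPM were divided by the length of all annotated exons in kb. Klf4 was the highest member in all 4 groups, with means of 298 and 354 CPM per kb in IMQ knockouts and controls and 731 and 773 CPM per kb in untreated knockouts and controls. Cebpa came second in each group, at 152 to 171 CPM per kb, and overlapped the gene next below it in the IMQ knockouts (Grhl3) and in no other group. Grhl1, Grhl3, Zfp750 and Trp63 lay between 53.2 and 141 CPM per kb, and in untreated controls the spread of Zfp750, Grhl3, Grhl1 and Trp63 overlapped from each to the next. Cebpb (36.9 to 53.7 CPM per kb) lay just below, level with Grhl1 in the IMQ knockouts, Prdm1 (21.4 to 34.2) and Gata3 (10.5 to 21.6 CPM per kb) followed, and Foxn1 was lowest by far, at 0.710 to 1.68 CPM per kb, which rested on 70 to 269 reads per library.

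**Figure D1:**
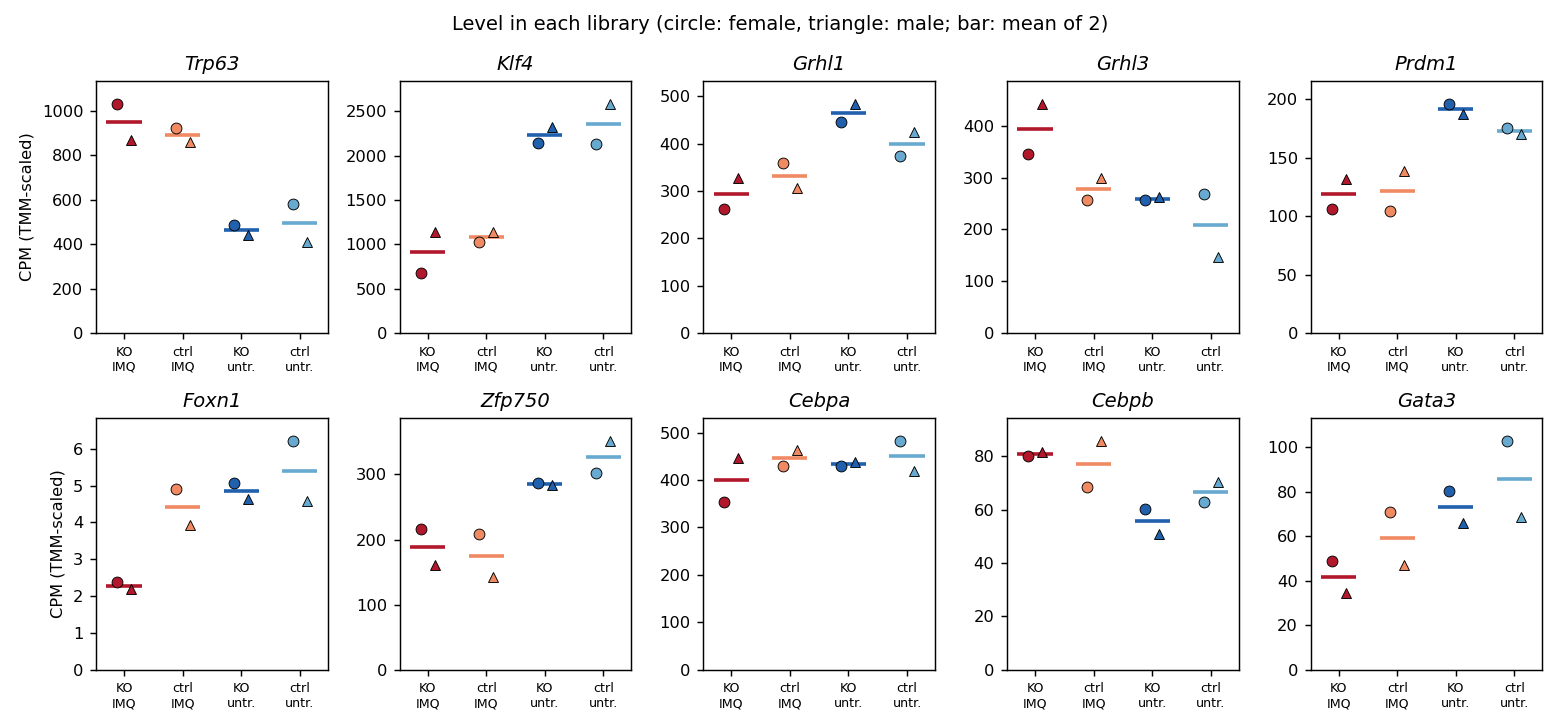
Level of each member in CPM (y axis, from 0) in the 4 groups (x axis: KO, labelled knockout; ctrl, control; untr., untreated), with circles for female and triangles for male libraries and a bar at the mean of 2. Trp63 stands between 859 and 1030 CPM in the IMQ libraries and between 408 and 578 CPM in the untreated ones, while Klf4 shows the opposite order.

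Under IMQ, the basal factor Trp63 stood higher than in untreated epidermis and most of the differentiation factors stood lower, in both genotype labels. The fold between IMQ and untreated libraries was 1.94 for Trp63 and 0.43 for Klf4. Zfp750 (0.59), Prdm1 (0.66) and Grhl1 (0.72) were lower with no overlap between the 4 IMQ and the 4 untreated libraries, while Grhl3 and Cebpb leaned the other way and Cebpa stood level. The 2 tables were scaled separately by the authors, so levels across them are in CPM, from the recovered reads and TMM factors of the 8 libraries, and no test was run between IMQ and untreated. In bulk tissue, fewer cells of a type and less RNA per cell cannot be told apart. Markers of other cells also differed between IMQ and untreated libraries without overlap: those of hair follicle stem cells and outer root sheath (9 genes) summed to 1628 to 2226 CPM in the IMQ libraries against 4539 to 5702 CPM in the untreated ones, those of macrophages and monocytes (11 genes) to 146 to 299 CPM against 90.4 to 128 CPM, and those of neutrophils (5 of 8 genes in the tables) to 19.7 to 116 CPM against 0.876 to 1.37 CPM. Sebaceous gland and T cell sums overlapped. The part of these cells in the members' values was not tested. Groups that did not overlap were common: 50.8% of all 14614 genes were apart between the 4 IMQ and the 4 untreated libraries (27.1% higher, 23.7% lower), against 5 of the 10 members (1 higher, 4 lower), so the count of members is not above the background. Among labelled knockouts 3 members were apart and higher (Trp63, Grhl3, Cebpb) and 6 lower, against 39.9% and 40.1% of all genes (79.9% in either direction). Among controls 1 was higher and 4 were lower, against 35.3% and 32.3% of all genes (67.6% in either direction).

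Trp63 (chromosome 16, 25683763 to 25892102, plus strand, as all positions here from GENCODE vM21 on GRCm38) had 1030 and 870 CPM in female and male IMQ knockouts and 924 and 859 CPM in IMQ controls, against 484 and 440 CPM in untreated knockouts and 578 and 408 CPM in untreated controls. The lowest IMQ library was above the highest untreated one, and the log2 difference was 1.04 in labelled knockouts and 0.87 in controls. The counts cover all transcripts of the gene, so the isoform with the transactivation domain and the shorter one that dominates in basal cells are not separated.

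Klf4 (chromosome 4, 55527143 to 55532466, minus strand), whose GC-rich promoter is shown above, had 676 and 1141 CPM in IMQ knockouts and 1023 and 1139 CPM in IMQ controls, against 2144 and 2317 CPM in untreated knockouts and 2130 and 2582 CPM in untreated controls. All 4 IMQ libraries were low, and the female knockout was the lowest of them. The log2 difference was -1.34 in labelled knockouts (-1.67 between females and -1.02 between males) and -1.12 in controls (-1.06 and -1.18).

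Zfp750 (chromosome 11, 121510978 to 121519333, minus strand), a zinc-finger factor that switches on late differentiation genes and holds back basal ones, had 217 and 161 CPM in IMQ knockouts and 209 and 142 CPM in IMQ controls, against 287 and 284 CPM in untreated knockouts and 303 and 352 CPM in untreated controls. Within IMQ the libraries were ordered by sex, with both females above both males, whatever the genotype label. Prdm1 (chromosome 10, 44437177 to 44528501, minus strand) had 106 and 132 CPM in IMQ knockouts and 104 and 139 CPM in IMQ controls, against 196 and 187 CPM in untreated knockouts and 175 and 170 CPM in untreated controls. Its IMQ libraries were also ordered by sex, here with the males higher.

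The related factors Grhl1 and Grhl3 stood on opposite sides of 0. Grhl1 (chromosome 12, 24572283 to 24617391, plus strand), which controls desmosomal cadherins, had 261 and 328 CPM in IMQ knockouts and 359 and 306 CPM in IMQ controls, against 445 and 484 CPM in untreated knockouts and 374 and 425 CPM in untreated controls. The gap was wide in labelled knockouts (log2 difference -0.66) and narrow in controls (-0.27), where the female pair differed by only -0.06. Grhl3 (chromosome 4, 135541888 to 135573630, minus strand), a driver of the barrier gene Tgm1 and of wound closure, had 345 and 442 CPM in IMQ knockouts and 256 and 300 CPM in IMQ controls, against 256 and 262 CPM in untreated knockouts and 269 and 147 CPM in untreated controls. The labelled knockouts were apart (log2 difference 0.59), while the controls overlapped, with -0.07 between females and 1.03 between males.

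Of the C/EBP factors, Cebpa (chromosome 7, 35119293 to 35121928, plus strand) was level: 353 and 446 CPM in IMQ knockouts and 429 and 464 CPM in IMQ controls, against 430 and 439 CPM in untreated knockouts and 483 and 420 CPM in untreated controls. Cebpb (chromosome 2, 167688915 to 167690418, plus strand), which is also a factor of the inflammatory response, had 80.0 and 81.6 CPM in IMQ knockouts and 68.4 and 85.8 CPM in IMQ controls, against 60.2 and 50.9 CPM in untreated knockouts and 62.7 and 70.3 CPM in untreated controls. Its labelled knockouts were apart (log2 difference 0.54) and its controls overlapped (0.21). Under the authors' own scaling the controls stood at -0.07, so the direction of Cebpb in controls depends on how the tables are set against each other. In that scaling the median of all genes was shifted by -0.32 in labelled knockouts and -0.26 in controls, against -0.01 and 0.02 with TMM factors.

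Gata3 (chromosome 2, 9857078 to 9890034, minus strand) had 48.8 and 34.7 CPM in IMQ knockouts and 71.0 and 47.1 CPM in IMQ controls, against 80.2 and 66.0 CPM in untreated knockouts and 103 and 68.8 CPM in untreated controls. Foxn1 (chromosome 11, 78357577 to 78386558, minus strand) had 2.38 and 2.18 CPM in IMQ knockouts and 4.90 and 3.93 CPM in IMQ controls, against 5.07 and 4.63 CPM in untreated knockouts and 6.22 and 4.59 CPM in untreated controls. For both genes the female IMQ control was the one IMQ library that reached into the untreated range. Without that library 9 of the 10 members were apart between IMQ and untreated libraries, all but Cebpa, against 58.8% of all genes. Leaving out any other library gave 5 or 6 members, against 53.2%, 53.5%, 53.9%, 54.9%, 55.4% or 55.7% of all genes depending on the library. Under the authors' scaling 8 members were apart, against 52.5% of all genes.

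**Figure D2:**
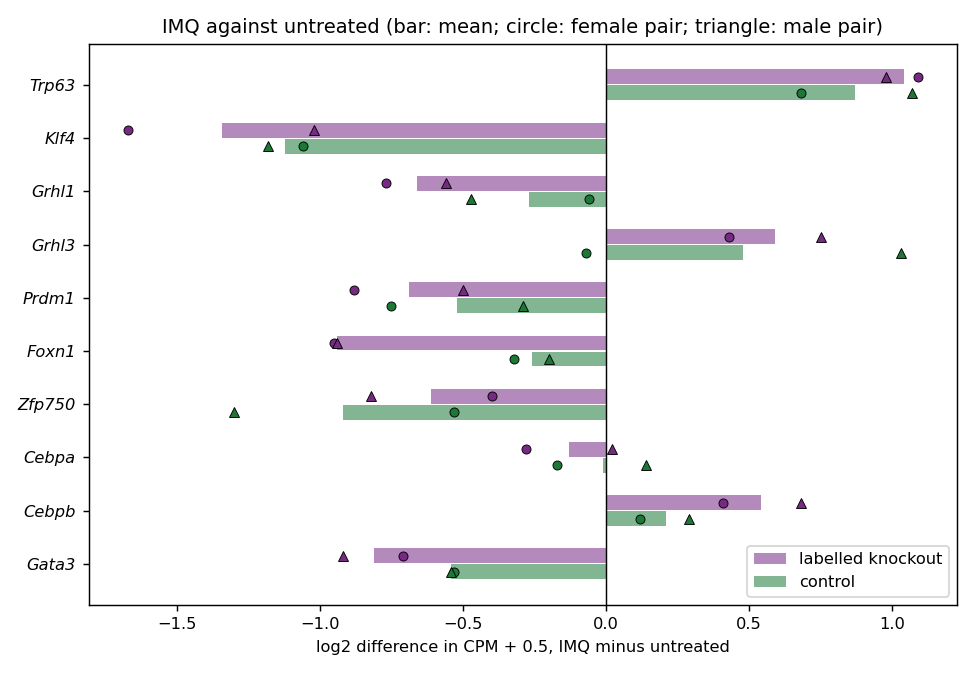
Log2 difference in CPM + 0.5 between IMQ and untreated libraries (x axis) for each member, with bars for the mean in labelled knockouts (upper) and controls (lower), circles for the female and triangles for the male pair. Klf4 lies farthest below 0 in both genotype labels (-1.34 in labelled knockouts, -1.12 in controls), and Trp63 farthest above it (1.04 and 0.87).

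The balance between members can be read within a library, where scaling between libraries drops out. Per kb of exon, Trp63 to Klf4 was 0.554 and 0.277 in IMQ knockouts and 0.329 and 0.274 in IMQ controls, against 0.0821 and 0.0689 in untreated knockouts and 0.0986 and 0.0575 in untreated controls. The lowest IMQ library thus lay above the highest untreated one. Trp63 to Zfp750 was between 1.71 and 2.32 in the 4 IMQ libraries and between 0.446 and 0.736 in the 4 untreated ones. There was again no overlap. Neither ratio could have overlapped, because Trp63 was higher and Klf4 and Zfp750 were lower under IMQ with no overlap of their own. These gaps therefore add nothing to the levels of the single genes. Grhl3 to Grhl1 was 2.62 and 2.68 in IMQ knockouts and 1.42 and 1.95 in IMQ controls, against 1.14 and 1.08 in untreated knockouts and 1.43 and 0.688 in untreated controls, so that the labelled knockouts under IMQ stood above all other libraries and the female control did not differ between treatments. These ratios were chosen after the values were seen and were not tested.

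**Figure D3:**
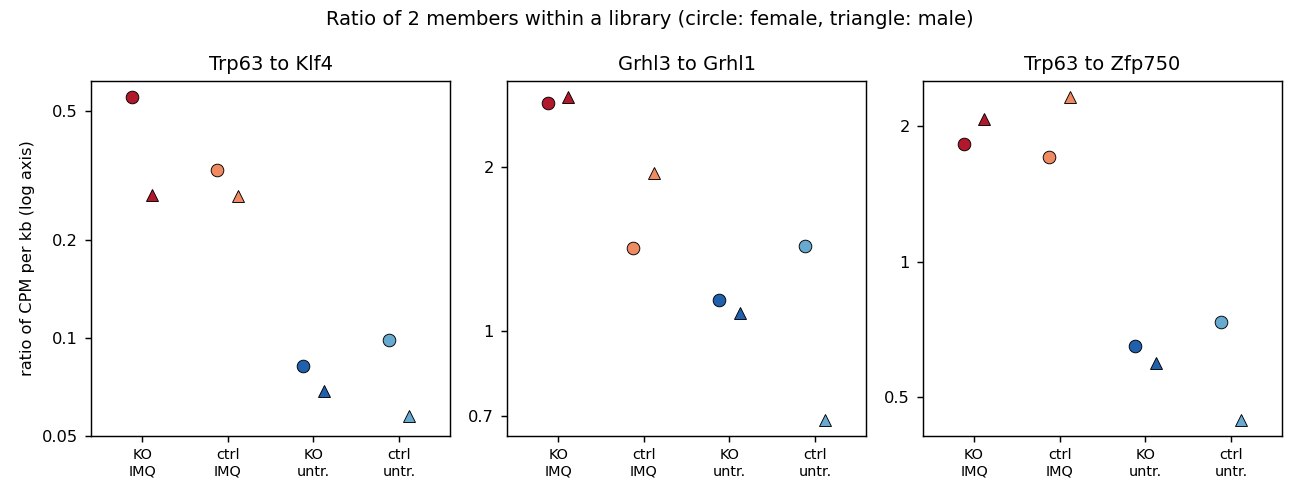
Ratio of 2 members within each library, in CPM per kb of exon (y axis, log scale), in the 4 groups (x axis). The 4 IMQ libraries lie above the 4 untreated ones for Trp63 to Klf4 and for Trp63 to Zfp750, as follows from the levels of these genes. For Grhl3 to Grhl1 the 2 labelled knockouts under IMQ, at 2.62 and 2.68, lie above the rest.

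The genotype comparison under IMQ asks how the factors differ between labelled Ovol1 loss and wild type in inflamed epidermis. Foxn1 showed the widest gap, lying in the labelled knockouts at about 0.52 of its level in controls, and Grhl3 leaned higher in the labelled knockouts, at 1.41-fold. The other 8 members had overlapping groups, where 53.0% of all genes had groups that did not overlap. The estimates of Trp63, Prdm1, Zfp750, Grhl1, Cebpa and Cebpb ran from -0.18 (Grhl1) to 0.12 (Zfp750) on the log2 scale. No member passed the threshold of an adjusted p of 0.05 in limma (0 of 10, with 1 at an unadjusted p under 0.05, against 0.438% of all 14614 genes called and 22.0% at an unadjusted p under 0.05). The test ran on log2 of the deposited normalised counts plus 1, in a fit over all 8 libraries with 14614 genes that had a mean of at least 10 in either table, all 10 members among them. The edgeR test called 0 members and DESeq2 called 1, Foxn1, where it called 8.50% of all genes.

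In deposited normalised counts Foxn1 had 73.6 and 66.6 in female and male labelled knockouts, against 150 and 121 in controls. The groups did not overlap, which held for 53.0% of all genes in this comparison (26.6% higher, 26.4% lower). The log2 fold change was -0.93 (SE 0.24, 95% interval -1.49 to -0.38), with a limma adjusted p of 0.105, 0.109 in edgeR and 0.0444 in DESeq2. With 1 library left out it ran from -1.08 to -0.78. The value of -0.78 was without the female control, the library with the muscle and endothelial markers. Foxn1 is known as a factor of the hair shaft, and the genes of that structure were near the floor: the 9 of 11 hair shaft and matrix markers found in the tables (Krt31, Krt33a and Krt35 at 0 in at least 1 library) summed to 5.44 and 13.4 CPM in IMQ knockouts and to 6.29 and 7.23 CPM in IMQ controls. Krt31, a hair keratin of that list, was at 0 CPM in both IMQ knockouts and at 0.0902 and 0.222 CPM in the IMQ controls, and Hoxc13, a hair keratin regulator, stood at 2.58 and 1.68 CPM against 3.31 and 3.63 CPM. Of the 7 genes of this list that were tested, 3 were positive and 4 negative (median log2 fold change -0.01), with the hair matrix factor gene Lef1 at -0.01. Markers of hair follicle stem cells and outer root sheath (9 genes) summed to 1654 and 1628 CPM in IMQ knockouts. In IMQ controls they summed to 2226 and 1850 CPM. Of these 9 genes 2 were positive and 7 negative (median log2 fold change -0.38), where 48.7% of all genes were positive. The part of hair cells in the Foxn1 gap was not tested.

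Grhl3 had 10649 and 13468 normalised counts in IMQ knockouts, against 7820 and 9245 in IMQ controls. Both labelled knockouts were above both controls, with log2 differences of 0.45 between females and 0.54 between males. The fitted log2 fold change was 0.49 (SE 0.27, 95% interval -0.14 to 1.12, limma adjusted p = 0.321), which as a fold runs from 0.91 to 2.18.

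Gata3 had 1507 and 1057 normalised counts in IMQ knockouts, against 2166 and 1451 in IMQ controls. It was lower in the labelled knockout of each sex, with log2 differences of -0.52 between females and -0.46 between males, while females exceeded males in both genotypes, so that the groups overlapped. The log2 fold change was -0.49 (SE 0.28, 95% interval -1.14 to 0.16, limma adjusted p = 0.335). This fit held no term for sex, and with sex as a replicate block the limma adjusted p was 0.0764. The log2 fold change ran from -0.78 without the male control to -0.20 without the female control. Gata3 is also a T cell factor, and the 15 T cell markers (Cd8a at 0 in at least 1 library) summed to 251 and 200 CPM in IMQ knockouts and to 211 and 221 CPM in IMQ controls, with Cd3g, a T cell receptor subunit, at 16.6 and 19.7 CPM against 24.7 and 20.4 CPM, and Cd3e, another subunit, at 8.66 and 8.08 CPM against 8.69 and 7.60 CPM. Of the 14 T cell markers tested 6 were positive and 8 negative (median log2 fold change -0.08). Their part in the Gata3 values was not tested.

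Klf4 had 20866 and 34779 normalised counts in IMQ knockouts, against 31188 and 35086 in IMQ controls, and the low value was the female knockout alone. Its log2 fold change was -0.30 (SE 0.24, 95% interval -0.86 to 0.27, limma adjusted p = 0.499), and 0.07 without that library. Grhl1 was at -0.18 (SE 0.15), with -0.44 between females and 0.08 between males. Among the members near 0, the intervals ran from -0.35 to 0.53 for Trp63, from -0.41 to 0.38 for Prdm1, from -0.38 to 0.61 for Zfp750, from -0.52 to 0.18 for Cebpa and from -0.27 to 0.43 for Cebpb. Sebaceous gland markers, a possible other source of C/EBP counts, summed to 1615 and 2809 CPM in IMQ knockouts and 2480 and 1821 CPM in IMQ controls, and markers of macrophages and monocytes to 146 and 185 CPM against 299 and 191 CPM; their part in these values was not tested.

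In untreated epidermis the log2 fold changes between labelled knockouts and Ovol1 +/- controls ran from -0.24 (Cebpb) to 0.41 (Grhl3). No member passed the threshold in limma (0 of 10, 0 of them at an unadjusted p under 0.05, where 0% of all genes were called and 4.46% had an unadjusted p under 0.05), and edgeR and DESeq2 also called 0 members (DESeq2 called 0.609% of all genes). Grhl3 had the largest estimate, at 0.41 (SE 0.27, 95% interval -0.22 to 1.04, limma adjusted p = 1.000), from 9669 and 9971 normalised counts in labelled knockouts against 10038 and 5469 in controls. That gap came from the male control alone: the female pair differed by -0.05. Grhl1 had 16848 and 18409 normalised counts in labelled knockouts against 13963 and 15797 in controls, a log2 fold change of 0.25 (SE 0.15, 95% interval -0.11 to 0.61), with 0.27 between females and 0.22 between males. Prdm1 likewise stood above both controls (0.17, SE 0.17), and Zfp750 (-0.17, SE 0.21) and Cebpb (-0.24, SE 0.15) below both; groups that did not overlap were seen for these 4 of 10 members and for 33.7% of all genes (17.4% higher, 16.4% lower). Foxn1 overlapped here, at 192 and 176 normalised counts in labelled knockouts against 232 and 171 in controls (-0.12, SE 0.24). Klf4, Trp63 and Cebpa were within 0.05 log2 units of 0. Sebaceous gland markers summed to 4644 and 4494 CPM in untreated knockouts and to 2397 and 3603 CPM in untreated controls. Of these 15 genes 14 were positive (median log2 fold change 0.82), where 49.5% of all genes were positive. Hair follicle stem cell and outer root sheath markers summed to 4539 and 4591 CPM against 5527 and 5702 CPM, with 0 of 9 positive. Macrophage and T cell sums overlapped. Their part in the untreated values was not tested.

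**Figure D4:**
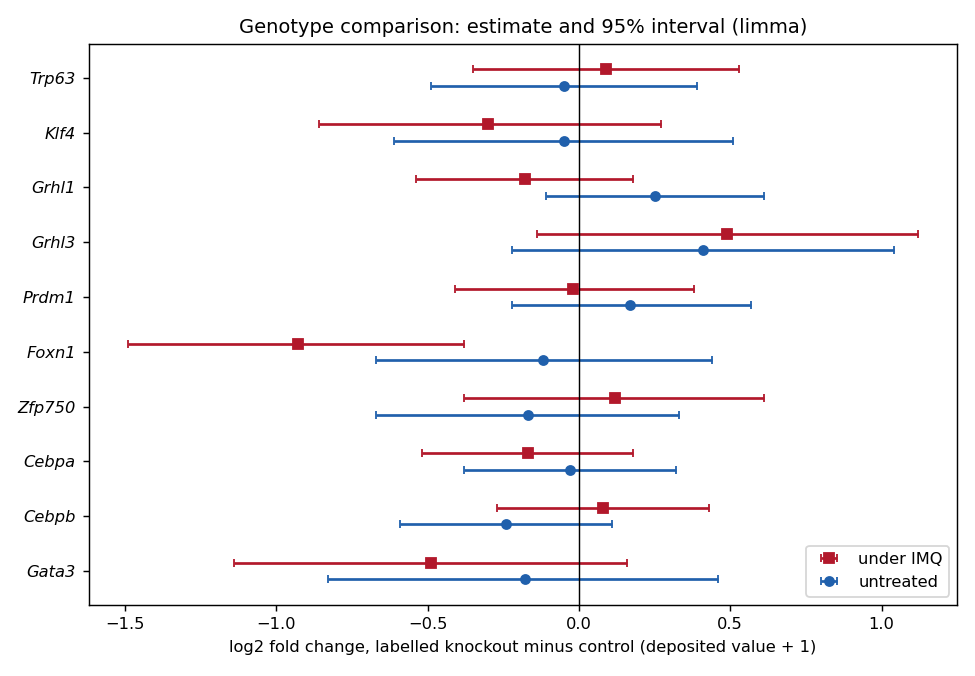
Log2 fold change of labelled knockout minus control on the deposited value plus 1 (x axis) for each member, under IMQ (squares, upper) and untreated (circles, lower), with 95% intervals from limma. The Foxn1 interval under IMQ, from -1.49 to -0.38, is the one that does not reach 0 before adjustment over all genes.

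Whether the genotype gap differed between IMQ and untreated epidermis was tested as a difference of the 2 contrasts. The controls were Ovol1 +/+ under IMQ and Ovol1 +/- untreated. Treatment and control genotype therefore cannot be told apart in this difference. No member passed in limma (0 of 10, 1 at an unadjusted p under 0.05, where 0% of all genes were called and 10.1% had an unadjusted p under 0.05), and edgeR and DESeq2 called 0 members, where DESeq2 called 0.677% of all genes. Foxn1 had the largest difference, -0.82 (SE 0.34, limma adjusted p = 0.482), and Grhl1 followed at -0.42 (SE 0.22, adjusted p = 0.525), since it leaned up in untreated and down in IMQ knockouts. Over the 10 members the median log2 fold change was -0.09 under IMQ, -0.05 untreated and -0.17 for the difference, against -0.01, 0.00 and -0.03 over all genes.

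The wider network was followed in 7 lists of 107 genes in all: other transcription factors of the epidermis, chromatin cofactors, basal genes under p63, spinous and granular layer genes, junction and barrier genes of the grainyhead-like factors, and proliferation genes. Under IMQ limma called 0 of the 107 between labelled knockouts and controls, where 0.438% of all genes were called, and 32 had an unadjusted p under 0.05, against 22.0% of all genes. The edgeR test called 0 and DESeq2 called 16, among them Dst, Id1, Flg2, Esrp1 and Rxra, against 8.50% of all genes. In untreated epidermis limma, edgeR and DESeq2 called 0, and 6 had an unadjusted p under 0.05, against 4.46% of all genes. For the difference limma and edgeR called 0, 16 genes had an unadjusted p under 0.05, against 10.1% of all genes, and DESeq2 made 1 call, Id1, against 0.677% of all genes.

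Among the 33 other transcription factors under IMQ, 13 log2 fold changes were positive and 20 negative, with a median of -0.18. Over all genes 48.7% were positive, with a median of -0.01. Rxra, the partner of nuclear receptors in keratinocytes, was at -0.56 (SE 0.11, limma adjusted p = 0.0714), with 173 and 168 CPM in IMQ knockouts against 263 and 241 CPM in IMQ controls. Id1, an inhibitor of basic helix-loop-helix factors, was at 1.11 (SE 0.25, adjusted p = 0.0878), with 178 and 253 CPM against 80.4 and 121 CPM. Both were apart between labelled knockouts and controls, as were 53.0% of all genes. They were named for their small p in this same comparison. Against untreated epidermis, 8 of the 33 stood higher and 5 lower in IMQ with no overlap, near the 27.1% and 23.7% of all genes. Of the 13 chromatin cofactors 6 were positive and 7 negative under IMQ (median -0.02), with the remodeler gene Chd4 at -0.37 (SE 0.14, limma adjusted p = 0.183).

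Among the genes these factors act on, no list held a gene that passed in limma between the genotypes under IMQ. Of all genes, 48.7% had a positive log2 fold change in this comparison. Of 14 basal genes under p63, 10 were negative under IMQ (median -0.15): the hemidesmosome anchor gene Dst was at -0.85 (SE 0.15, limma adjusted p = 0.0657) while the integrin gene Itgb1 was at 0.58 (SE 0.18, adjusted p = 0.145). Of 9 spinous genes 7 were negative (median -0.12), with the desmosomal cadherin gene Dsg1a at -0.60 (SE 0.14, adjusted p = 0.0895) and Krt10 at -0.63 (SE 0.26, adjusted p = 0.213). Of 20 granular genes 12 were negative (median -0.07), with the filaggrin-like Flg2 at -1.72 (SE 0.37, adjusted p = 0.0818) and the envelope gene Scel at -0.79 (SE 0.19, adjusted p = 0.0928). Of the 11 junction and barrier genes of the grainyhead-like factors 8 were negative (median -0.13), with the splicing regulator gene Esrp1 at -0.64 (SE 0.13, adjusted p = 0.0734). All 10 proliferation genes were negative (median -0.36), with Top2a at -0.76 (SE 0.36, adjusted p = 0.262) and Mcm5 at -0.44 (SE 0.27, adjusted p = 0.369), and 0 of them had an unadjusted p under 0.05. Single libraries set much of these values: Top2a was at -0.34 without the female control and -1.18 without the male control, Mcm5 at -0.20 without the female knockout and -0.68 without the male knockout, and Krt10 at -0.29 without the female knockout and -0.97 without the male knockout. Without the male knockout Flg2 was at -2.19 (limma adjusted p = 0.0466) and Scel at -1.07 (0.0324), and without the female knockout Scel was at -0.51 (0.379).

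Between IMQ and untreated libraries, the 14 basal genes under p63 had a median log2 difference of 0.29, with 5 higher and 2 lower without overlap, where 27.1% of all genes were higher and 23.7% lower, and Itgb1 stood at 1.01 and Dst at -1.57. The 11 grainyhead-like junction genes had a median of -0.41, with 2 higher and 4 lower, and Esrp1 stood at -0.88. The spinous list had a median of -0.16. The granular list had a median of 0.12, with 4 higher and 2 lower without overlap. Of its genes named for their p between genotypes, Scel stood at -1.49 with no overlap and Flg2 at -1.01 with overlap. These list values were not tested.

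For each member, the gene whose level followed it most closely over the 8 libraries was named by Pearson's r of log2 CPM among the tested protein-coding genes with a standard symbol. The 8 libraries share their treatment, sex and depth across all genes, and no correlation within a treatment was computed. Each r is the highest over all genes searched, from 8 libraries, and shared regulation was not tested. The closest genes were Kctd3 for Trp63 (r = 0.993), Iqsec1 for Klf4 (0.998), Letm2 for Zfp750 (0.983), Mepce for Prdm1 (0.989), Pank1 for Grhl1 (0.988), Pcdhga11 for Grhl3 (0.979), Psmc3ip for Cebpb (0.982), Limd1 for Gata3 (0.985) and Ets2 for Foxn1 (0.991). Cebpa had the loosest match, Asah2 (0.949). Among the members themselves, Klf4 and Prdm1 were each other's closest (0.922), as were Foxn1 and Gata3 (0.916).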

How the data were processed

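The deposited tables (IMQ, untreated) hold a signal in arbitrary units: per the file headers and values, the authors' read counts per gene divided by 1 size factor per library, each table scaled by itself. Per the submitters' processing notes, the build was mm10 and the tools were STAR 2.5.2a, Trimmomatic 0.35, R 3.6.1 and DESeq2 1.24.0; the read counter, annotation and gene filter were not found in these notes. In each library, 100% of the values were whole multiples of 1 step (within 0.001), which gave whole reads. The column names call both controls WT; the labels' genotypes were followed.

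Genotype was tested with limma 3.58.1 (R 4.3.3) on log2(deposited value + 1), 4 group means over 8 libraries (4 residual degrees of freedom), trend and robust moderation, and Benjamini-Hochberg adjustment over the 14614 genes with a mean of at least 10 in either table. Contrasts lie within a table, so separate scaling cancels. Recovered reads entered edgeR 4.0.16 and DESeq2 1.42.0 as alternatives, and gave CPM (TMM factors, 0.5 added before log2). IMQ was set against untreated without a test. Named were the 10 members, Ovol1, Ovol2, the genes of each pathway list that passed or, with none, the 2 of smallest p under IMQ, the closest gene in pattern, and defining markers; a gene that this rule also names is not reported here. The limma step was tested on simulated counts. Members and lists were chosen with earlier results of these data known. Positions and exon lengths are from GENCODE vM21, which held 16745 of the 16902 symbols; promoters are from RefSeq. Python 3.11.15, pandas 2.3.3 and matplotlib 3.10.9 made the plots.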

Additional observations from a re-analysis of the deposited data

Results flagged for a closer look

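Zfp750 lay higher in the labelled knockout than in the control of the same sex for both sexes under IMQ (0.07 between females and 0.16 between males on the log2 scale) and lower for both sexes in untreated epidermis (-0.06 and -0.28). The test of the difference itself gave 0.29 (SE 0.30, limma adjusted p = 0.753), which did not pass the threshold.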

How the results depend on the processing

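Of 620 values for the 10 members in 3 contrasts under alternative settings, 1 came to pass the threshold (Foxn1 under IMQ in DESeq2, so that 1 member was called there) and 24 changed sign, none of them past the threshold. With another method, Prdm1 under IMQ turned to 0.01 in DESeq2 and untreated Klf4 to 0.05 with quantile normalisation. With 1 library left out, the ranges that crossed 0 were, under IMQ, -0.04 to 0.22 for Trp63, -0.66 to 0.07 for Klf4, -0.24 to 0.20 for Prdm1, -0.15 to 0.39 for Zfp750 and -0.09 to 0.25 for Cebpb; untreated, -0.30 to 0.20 for Trp63, -0.18 to 0.09 for Klf4, -0.03 to 0.84 for Grhl3, -0.34 to 0.11 for Foxn1, -0.13 to 0.08 for Cebpa and -0.48 to 0.11 for Gata3; for the difference, -0.12 to 0.39 for Trp63, -0.62 to 0.12 for Klf4, -0.35 to 0.53 for Grhl3, -0.41 to 0.03 for Prdm1 and -0.30 to 0.02 for Cebpa.

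The number of all genes called moved far more. Under IMQ it was 64, against 0 with plain moderation, 0 with each table alone, 358 with sex as a replicate block, 292 in edgeR with that block, 1242 in DESeq2, 633 at an adjusted p under 0.10 and 0 to 299 with 1 library left out. Untreated it was 0, against 5 with a pseudocount of 5, 8 with each table alone, 8 with the block, 6 in edgeR with the block, 89 in DESeq2, 15 at 0.10 and 0 to 2 with 1 library left out. For the difference it was 0, against 99 in DESeq2, and each table alone gives no value for it. The cause was not tested. The block changed no call of a member (Foxn1 0.0659 and Gata3 0.0764 under IMQ, limma adjusted p), and its calls among the pathway genes under IMQ included Dst, Id1, Flg2 and Esrp1. The labels tie same-numbered libraries only by sex, and the correlation of same-sex deviations between groups was 0.145 to 0.463 over genes and 0.0742 to 0.393 without X and Y.

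Between IMQ and untreated libraries 5 members were apart, 8 under the authors' scaling (52.5% of all genes) and 5 to 9 with 1 library left out. The one library behind the 9 is the female IMQ control. Leaving out libraries in this comparison was chosen after seeing the data. The members' median log2 difference was -0.53 (-0.64 in labelled knockouts and -0.26 in controls), -0.83 under the authors' scaling, and between -0.55 and -0.43 with 1 library left out. Foxn1, at 70 to 269 reads, is the member with the fewest reads. Its SE under IMQ was 0.24, against 0.28 for Gata3 and 0.27 for Grhl3. The part of read depth in these values was not tested.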
